A study of Rattus norvegicus with 4 samples.

Results

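Transcripts of 10 subunits of the vacuolar proton pump (V-ATPase) were examined in NR8383 cells exposed to NiZnFe2O4: Atp6v1a, Atp6v1b2, Atp6v1c1, Atp6v1d, Atp6v1e1, Atp6v1f, Atp6v1g1, Atp6v1h, Atp6v0d1 and Atp6ap1. They were chosen by name as core subunits of the pump, with earlier results of these data known. All 10 had a probe, among 16581 rat genes that could be tied to a symbol, and they were covered by 12 probes, with 1 probe for 8 genes and 2 probes for Atp6v1a and Atp6v1h. NR8383 is a macrophage line grown from lung lavage of a normal rat. The cells had gone through 20 passages, were seeded 48 h ahead in flasks with medium holding 15% serum, and were exposed to 9.25 µg/mL of NiZnFe2O4, an iron oxide with nickel and zinc going by the formula, for 4 h. The 4 biological replicates form 1 group, with 1 one-colour Agilent array each. Untreated cells, named in the design, were not analysed here. No value below therefore shows what the exposure changed, and no test between groups was made.

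The V-ATPase is a rotary motor that uses ATP to move protons into lysosomes, endosomes and phagosomes. Its cytosolic V1 sector splits ATP and turns a central rotor, and its membrane V0 sector carries the protons across. Macrophages need the acid that it makes to digest what they take up, because lysosomal proteases such as cathepsins work at low pH, and the pump also serves as a docking site for the nutrient-sensing machinery on the lysosome surface. Several subunits exist as isoforms from separate genes, some of which are found mainly in acid-secreting kidney cells, osteoclasts, neurons or testis.

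All 10 subunit transcripts were well above background on all 4 arrays, where 38.7% of all 16581 genes were. Because the 10 were chosen with earlier results of these data known, this count is not independent of the data. Of 15 other pump subunits measured, 8 passed. All 12 probes passed, the dimmer probes of Atp6v1a and Atp6v1h included. The weakest of them, the second Atp6v1a probe, had processed signals of 29.8, 28.3, 22.7 and 37.3 intensity units on replicates 1 to 4. The lowest signals that still counted as well above background on those arrays were 9.23, 11.7, 13.0 and 9.79 units. They are single lowest cases, and the flag did not follow the signal alone. The Atp6ap1l probe, with 17.2 units on replicate 1, was not flagged there. At the bright end the Atp6v1b2 probe had 3180, 3989, 2800 and 3316 units, and no spot of these genes was saturated. Levels below are log2 processed signals minus the 75th percentile of that array's probes. In bulk RNA a lower level can mean less RNA per cell or fewer cells that hold it, which cannot be told apart. The signal of a probe depends on its sequence, so the level of a gene is set only against itself on other arrays.

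The catalytic head of V1 is built from A and B subunits in alternation. Atp6v1a, which encodes the A subunit that binds and splits ATP, stood at levels of 3.91, 3.83, 3.46 and 3.44 on replicates 1 to 4 (mean 3.66 ± 0.24 SD, n = 4). Replicates 1 and 2 lay above replicates 3 and 4, by at most 1.38-fold. Atp6v1b2, the B subunit isoform found in most tissues, stood at 6.25, 6.93, 6.90 and 7.07 (mean 6.79 ± 0.36 SD, n = 4). Replicate 1 was the low array and the other 3 lay close together. The highest and lowest arrays differed 1.75-fold.

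The central rotor passes the motion of the head to the membrane. Atp6v1d, the shaft subunit D, stood at 2.95, 3.56, 3.29 and 3.82 on replicates 1 to 4 (mean 3.41 ± 0.37 SD, n = 4). Atp6v1f, the small subunit F beside it, stood at 6.37, 6.56, 6.53 and 6.98 (mean 6.61 ± 0.26 SD, n = 4). For both genes replicate 1 was lowest and replicate 4 highest. Atp6v0d1, the d subunit that joins the shaft to the ring of the membrane sector, had the largest spread of the 10 genes under this scaling. It stood at 4.82, 5.57, 5.78 and 6.02 (mean 5.55 ± 0.52 SD, n = 4), a 2.30-fold difference between replicates 1 and 4. Its SD of 0.52 exceeded that of 95.1% of all genes above background. It rested on replicate 1: without that array it was 0.23, and Atp6v1e1 had the largest SD at 0.38. Without scaling it was 0.21 and with normexp background correction 0.28, and Atp6v1c1 had the largest SD under both, at 0.70 and 0.54.

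The peripheral stalks hold the head still while the rotor turns. Atp6v1e1, subunit E of the stalks, stood at 1.43, 1.81, 1.79 and 2.46 on replicates 1 to 4 (mean 1.88 ± 0.43 SD, n = 4), with replicate 4 at 2.04 times replicate 1. Its stalk partner Atp6v1g1, subunit G, stood at 6.18, 6.24, 6.21 and 6.38 (mean 6.25 ± 0.09 SD, n = 4). The smaller SD of Atp6v1g1 turned round without scaling, at 0.34 against 0.31 for Atp6v1e1, and with normexp, at 0.26 against 0.24. Atp6v1c1, the C subunit that is released when the pump comes apart, ran the other way from most members. It stood at 4.59 on replicate 1 and at 3.87, 3.79 and 4.08 on replicates 2 to 4 (mean 4.08 ± 0.36 SD, n = 4), so that replicate 1 was 1.74 times the lowest array. Atp6v1h, the regulatory subunit H that restrains ATP splitting by V1 when it is detached, stood at 3.55, 3.56, 3.64 and 3.14 (mean 3.47 ± 0.23 SD, n = 4), and replicate 4 lay below the other 3.

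Atp6ap1, the accessory protein that helps the membrane sector to assemble, had the smallest SD under this scaling. It stood at 5.86, 5.90, 5.72 and 5.76 on replicates 1 to 4 (mean 5.81 ± 0.09 SD, n = 4), a 1.14-fold range. Atp6v1g1 had the smaller SD with the percentile over probes above background, 0.06 against 0.15 for Atp6ap1, and with quantile normalization, 0.07 against 0.18. Without scaling the SD of Atp6ap1 was 0.46. Under the scaling used here its SD was larger than that of 6.39% of all genes above background, and the SD of Atp6v1g1 was larger than that of 6.79%. With that scaling Atp6v0d1 stood near the opposite end of the range of spreads on these arrays.

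**Figure D1:**
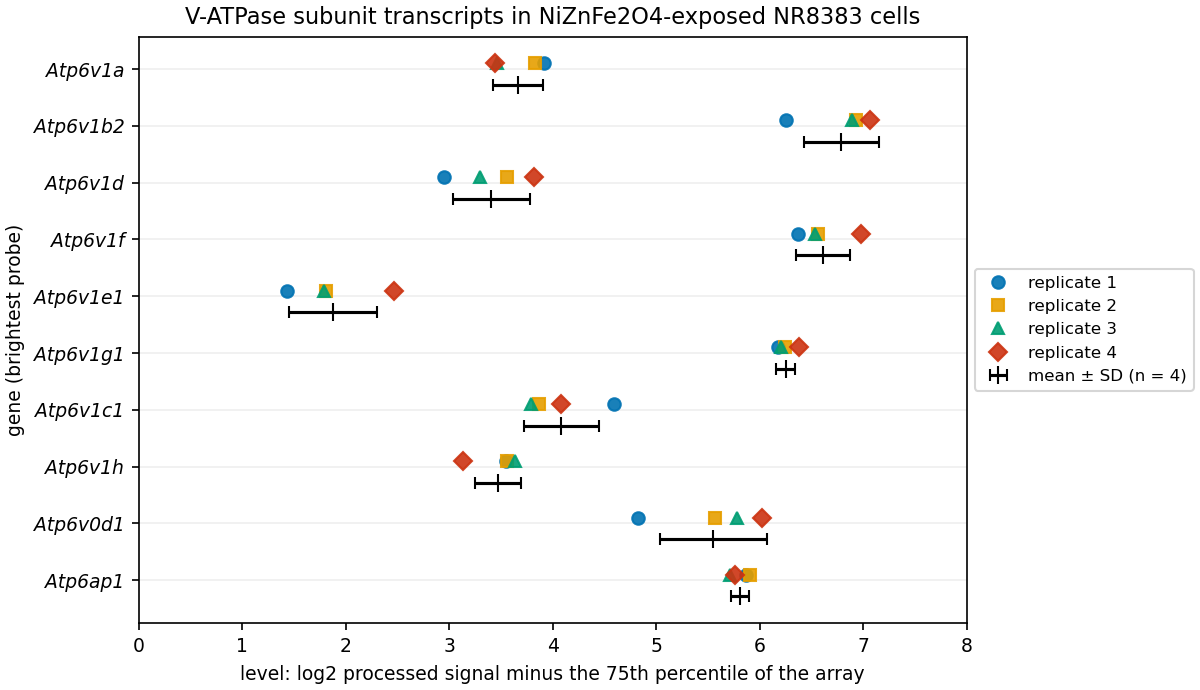
Level of each V-ATPase subunit gene (horizontal axis, log2 processed signal minus the 75th percentile of the array) on replicates 1 to 4 (coloured symbols), with the mean ± SD (n = 4) as a bar below. Positions of different genes along the axis depend on the probes and are not comparable; the 4 symbols of a gene are, and they lie closest for Atp6ap1 and Atp6v1g1 and widest for Atp6v0d1.

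The promoters of 7 of the 10 subunits were matched by symbol in RefSeq's GRCr8 sequences: Atp6v1a, Atp6v1d, Atp6v1e1, Atp6v1f, Atp6v1g1, Atp6v0d1 and Atp6ap1. In the 250 bases before the start, searched on both strands, the E-box CACGTG was found in 1 of the 7, Atp6v0d1, and in 5.59% of all 33469 promoters of the table. The looser pattern TCACNTG, which overlaps the E-box where N is G, was found in 2 of the 7, Atp6v0d1 and Atp6v1a, and in 13.1% of all. The GC box GGGCGG was found in 5 of the 7 and in 30.5% of all, CCAAT in 2 and 34.0%, and TATAAA in 1 and 12.9%. A match describes the letters only. The promoters of 3 subunits are shown with the matches in capitals. Atp6v0d1 was the most variable and Atp6v1g1 hardly varied, both under the scaling used here only. The 2 probes of Atp6v1a placed replicates 1 and 4 at opposite ends. In Atp6v0d1 the capitals mark the E-box, which begins 52 bases before the start. In Atp6v1a they mark the TCACNTG match, which begins 23 bases before the start. In Atp6v1g1 they mark 4 matches of GGGCGG, all on the opposite strand as CCGCCC, some of which share a letter. The windows lie at chr19:50357249-50357498 (minus strand), chr11:70067252-70067501 (plus strand) and chr5:81976709-81976958 (plus strand) of GRCr8, and each is written along the gene's own strand.
Atp6v0d1: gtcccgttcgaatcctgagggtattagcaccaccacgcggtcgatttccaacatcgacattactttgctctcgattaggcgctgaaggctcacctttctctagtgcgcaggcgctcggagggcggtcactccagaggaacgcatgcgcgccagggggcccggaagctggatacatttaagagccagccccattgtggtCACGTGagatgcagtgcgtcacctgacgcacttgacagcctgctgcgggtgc
Atp6v1a: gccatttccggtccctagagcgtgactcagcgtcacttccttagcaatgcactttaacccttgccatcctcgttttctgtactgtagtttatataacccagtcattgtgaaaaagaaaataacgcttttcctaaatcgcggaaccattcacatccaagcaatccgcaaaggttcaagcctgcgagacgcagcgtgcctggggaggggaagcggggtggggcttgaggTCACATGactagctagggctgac
Atp6v1g1: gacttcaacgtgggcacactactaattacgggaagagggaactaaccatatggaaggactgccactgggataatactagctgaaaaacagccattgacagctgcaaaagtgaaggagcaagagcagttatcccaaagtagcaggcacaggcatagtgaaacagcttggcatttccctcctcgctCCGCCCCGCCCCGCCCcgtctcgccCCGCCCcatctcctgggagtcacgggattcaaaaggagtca

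The median SD of the 10 subunits was 0.31 log2 units, against 0.23 over all genes above background, where the 10th and 90th percentiles were 0.10 and 0.43. The direction turned in a pair of settings: without scaling the medians were 0.33 for the subunits and 0.38 for all genes, and with dim genes kept among all genes they were 0.31 and 0.43. Of the 10 subunits 7 had an SD above that median, 1 (Atp6v0d1) lay above the 90th percentile and 2 (Atp6ap1 and Atp6v1g1) lay below the 10th. Dim genes vary more, so each subunit was also set beside genes whose level lay within 0.5 log2 units of its own. The SD of 8 subunits exceeded the median of their neighbours in signal, as for Atp6v0d1 with 0.52 against 0.18 for 520 genes. Atp6v1g1 and Atp6ap1 were the exceptions, with 0.09 against 0.18 each. Repeated spots of 1 probe on the same array had a median SD of 0.06 to 0.10 log2 units over the 4 arrays, which leaves out differences between arrays and cultures. These comparisons are descriptions, with no test.

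The arrays on which the subunits were high or low were partly shared. For 6 of the 10 (Atp6v1b2, Atp6v1d, Atp6v1e1, Atp6v1f, Atp6v1g1 and Atp6v0d1) replicate 1 was lowest and replicate 4 highest. The same held for 22.1% of all genes above background. It also held for 5 of the 8 other pump subunits above background, 6 of 18 lysosomal hydrolases and membrane proteins and 4 of 10 cathepsins. Other lists had the order too: 4 of 14 mitochondrial ATP synthase subunits, 3 of 10 genes of the mTORC1 docking platform and 3 of 9 macrophage markers. So did 3 of 6 channels and exchangers and 1 of 3 assembly and regulator genes. Among 6 genes of the TFEB family and its regulators it held for 0. It also held for 0 of 2 granulocyte and lymphocyte markers and for 0 of 1 osteoclast marker. Averaged over the 10 subunits, the deviation from each gene's own mean was -0.16, 0.03, -0.04 and 0.16 log2 units on replicates 1 to 4, against medians of -0.06, -0.01, 0.02 and 0.06 over all genes above background. The SD among the 10 subunits was 0.39 on replicate 1 and 0.31 on replicate 4. The spots within 10 rows and columns of the 12 member probes shifted the same way. Their median deviation from the other arrays was below 0 on replicate 1 for 11 probes and above 0 on replicate 4 for 11. Over the 12 it ran from -0.28 to 0.00 (median -0.10) and from -0.11 to 0.21 (median 0.09). These values include any shift of the whole array. The all-gene medians above are deviations from each gene's own mean, which is another measure. A shift local to the member spots was not separated from one of the whole array. For Atp6v1f and Atp6v1g1 the neighbours' deviation on replicate 1, -0.22 and -0.15, was larger in size than the probes' own, -0.19 and -0.06. For Atp6v0d1 it was -0.17, beside -0.96 for the probe. The part of these shifts in the ordering was not tested.

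This ordering turned with the scaling of the arrays. The count of 6 among the 10 subunits became 5 with the percentile taken over probes above background and 3 with quantile normalization. It became 1 both with normexp background correction and without scaling. Over all genes the share with this order was then 15.6%, 16.7%, 6.68% and 0.779%. With the percentile over probes above background the average deviation of the 10 subunits was -0.09 on replicate 1 and 0.09 on replicate 4. All genes above background then had medians of 0.01 and -0.01. Without scaling the average deviation of the 10 subunits was 0.32 on replicate 1 and -0.10 on replicate 4, and all genes above background had medians of 0.42 and -0.20. Atp6v0d1 and Atp6v1c1 kept both their lowest and their highest array under all 5 scalings. For Atp6v0d1 the lowest was replicate 1 and the highest replicate 4; for Atp6v1c1 the highest was replicate 1 and the lowest replicate 3. Atp6v1a stayed highest on replicate 1, Atp6v1e1 highest on replicate 4 and Atp6v1h lowest on replicate 4 under all 5. The order of Atp6v1g1, whose values were nearly level under the scaling used here, changed most.

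**Figure D2:**
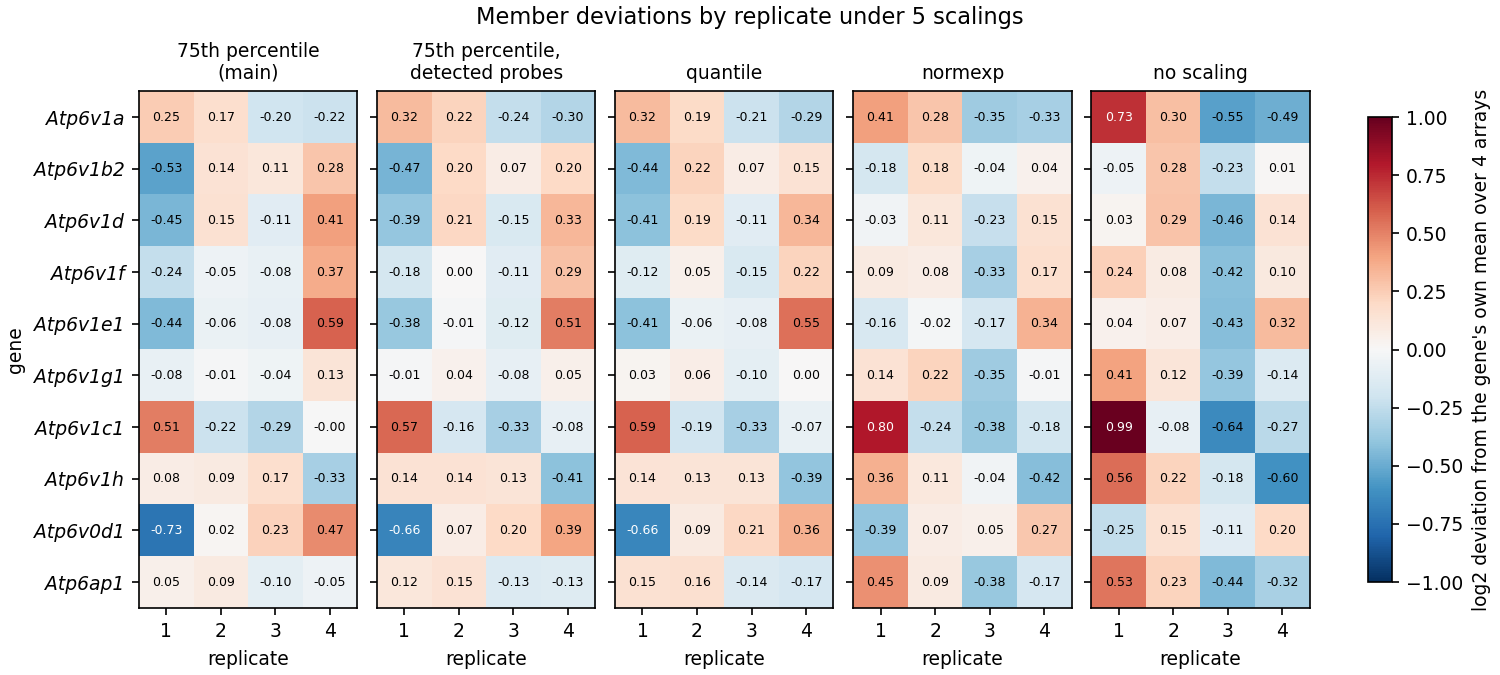
Deviation of each subunit from its own mean over the 4 arrays (colour and printed value, log2 units), by replicate, under the 75th percentile scaling of the report and 4 alternatives. Atp6v0d1 stays low on replicate 1 and Atp6v1c1 high on replicate 1 in every panel; without scaling all the others except Atp6v1b2 have positive values on replicate 1.

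Differences between subunits on the same array are untouched by any shift of a whole array, and showed which members moved unequally. The log2 difference Atp6v1b2 minus Atp6v1a, the partners of the catalytic head, was 2.34, 3.10, 3.44 and 3.62 on replicates 1 to 4, a 2.43-fold change in their ratio between replicates 1 and 4. With the dimmer Atp6v1a probe the difference was 6.74, 7.14, 6.95 and 6.47, a 1.59-fold range with replicate 4 lowest, so this change held for the brighter probe only. Atp6v0d1 minus Atp6v1c1 was 0.23, 1.71, 1.99 and 1.94, a 3.39-fold change. Replicate 1 stood alone at the low end of this ratio and of the first with the brighter probe. The rotor partners kept closer together: Atp6v1d minus Atp6v1f was -3.42, -3.00, -3.24 and -3.16, a 1.34-fold range. The stalk pair Atp6v1e1 minus Atp6v1g1 ranged 1.77-fold, Atp6v1c1 minus Atp6v1h 1.85-fold and Atp6v0d1 minus Atp6ap1 2.47-fold. Only the changes of these differences between arrays are meaningful, because their sizes also reflect the probes. The pair Atp6v0d1 and Atp6v1c1 was chosen after their values were seen; the others follow from their place in the pump.

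**Figure D3:**
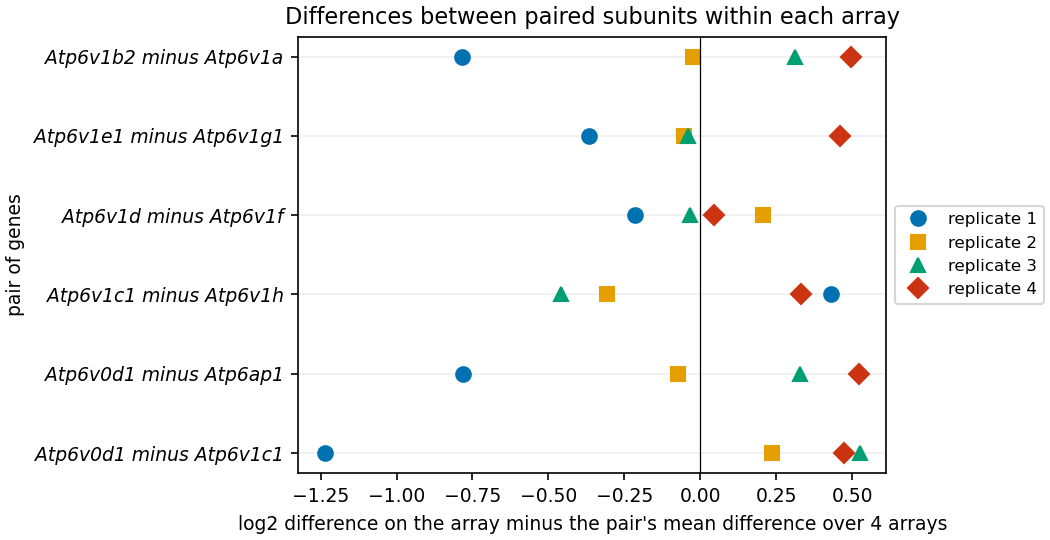
Log2 difference between paired subunit genes on each array, relative to the mean difference of that pair over the 4 arrays (horizontal axis); symbols mark replicates 1 to 4. Replicate 1 lies far to the left for Atp6v0d1 minus Atp6v1c1, Atp6v0d1 minus Atp6ap1 and Atp6v1b2 minus Atp6v1a (brighter probe), and the points of Atp6v1d minus Atp6v1f lie closest together.

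A second probe gave another reading of Atp6v1a and Atp6v1h on the same arrays. The probes of Atp6v1h shared their lowest array only: the dimmer probe stood at 2.89, 2.95, 2.77 and 2.61 on replicates 1 to 4 (mean 2.80 ± 0.15 SD, n = 4), and replicate 4 was lowest with either, while replicate 3 was highest with the brighter probe and second lowest with the dimmer. The probes of Atp6v1a did not. The dimmer probe stood at -0.48, -0.21, -0.05 and 0.59 (mean -0.04 ± 0.46 SD, n = 4), lowest on replicate 1 and highest on replicate 4, where the brighter probe had its highest and lowest values the other way round. The brighter minus the dimmer probe was 4.40, 4.04, 3.51 and 2.85 log2 units on replicates 1 to 4. Both probes carry the same transcript accession, and which of them follows the Atp6v1a messenger was not tested. The array order of Atp6v1a thus depends on the probe.

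**Figure D4:**
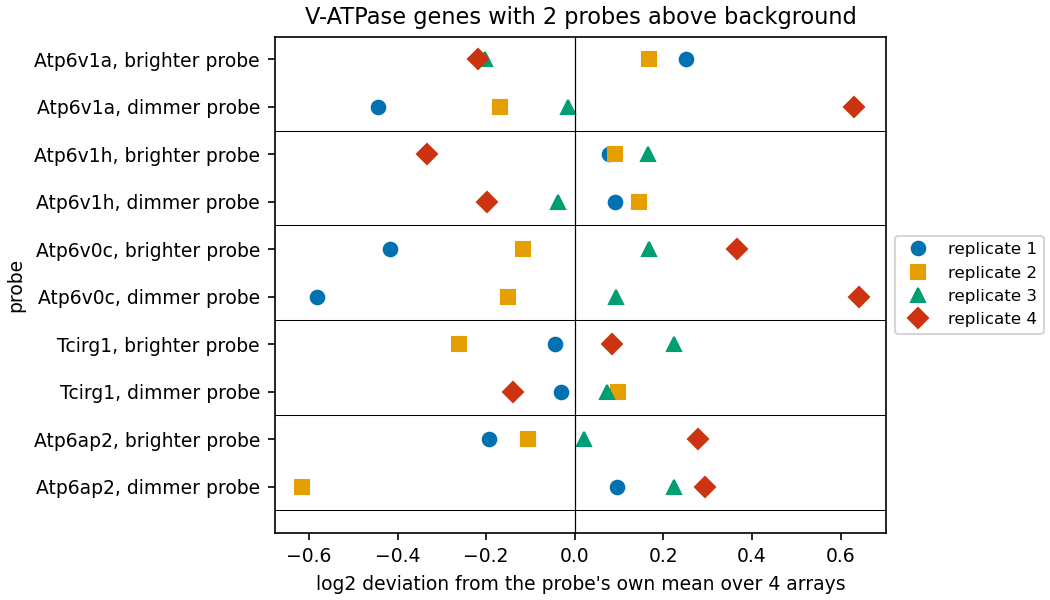
Deviation of each probe from its own mean over the 4 arrays (horizontal axis, log2 units) for the 5 V-ATPase genes with 2 probes above background; symbols mark replicates 1 to 4. The probes of Atp6v0c order the arrays alike, and those of Atp6v1h share replicate 4 as the lowest. The Atp6v1a probes place replicates 1 and 4 at opposite ends, and the dimmer Atp6ap2 probe is low on replicate 2. The brighter Tcirg1 probe is lowest on replicate 2, where the dimmer is highest.

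The other subunits of the pump differed in whether they passed the background flag. Of 15 measured, 8 (53.3%) passed on every array, beside 38.7% of all genes. Of the rest 1 (Atp6v0a2) passed on 3 arrays and 6 on 0. The proteolipids Atp6v0c and Atp6v0b, which form the proton-carrying ring, stood at 7.35 ± 0.34 and 7.14 ± 0.35 (SD, n = 4 each). For the proton-path subunit a, Atp6v0a1 stood at 3.10 ± 0.33 and Tcirg1, the isoform a3 of osteoclasts and lysosomes, at 7.36 ± 0.21 (SD, n = 4 each), while Atp6v0a2 passed on 3 of 4 arrays. The dimmer Tcirg1 probe stood at 3.94 ± 0.11 (SD, n = 4), highest on replicate 2, where the brighter probe was lowest. The small subunit Atp6v0e1 stood at 5.47 ± 0.13, its isoform Atp6v0e2 at -0.18 ± 0.27, and the accessory receptor Atp6ap2 at 3.19 ± 0.21 (SD, n = 4 each). Atp6v0d2, the alternative to Atp6v0d1 known from osteoclasts, kidney and some macrophages, was also above background on all 4 arrays, at 3.84, 3.56, 2.91 and 4.06 on replicates 1 to 4. Replicate 3 was its lowest array, where Atp6v0d1 was lowest on replicate 1.

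For 4 of the V1 subunits with isoforms, only the member isoform was well above background. Atp6v1b1, the B isoform of kidney and other acid-secreting epithelia, was not well above background on any array, with processed signals of 3.59, 3.07, 3.67 and 3.46 units on replicates 1 to 4. These lay near the lowest processed signals on the arrays, 3.19, 2.69, 3.42 and 3.27 units. Atp6v1c2 in place of Atp6v1c1, the testis isoform Atp6v1e2 in place of Atp6v1e1, and Atp6v1g2, known from neurons, and Atp6v1g3, known from kidney, in place of Atp6v1g1 were likewise not well above background on any array, nor did they pass the looser flag there. The Atp6ap1 relative Atp6ap1l was different: it was not well above background on any array but passed the looser flag on all 4, with processed signals of 17.2, 9.89, 8.62 and 5.83 units on replicates 1 to 4. A transcript not well above background has only an upper bound. No probe could be matched to Atp6v0a4. None of 6 markers of acid-secreting epithelium, Foxi1 and Slc4a1 among them, was above background on all 4 arrays, and Slc4a1 passed on 1. Of 3 measured osteoclast markers only Calcr passed on all 4, at 0.84 ± 0.22 (SD, n = 4), and not with both of its probes. Acp5 passed on 3. Over all genes 38.7% passed on all 4.

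**Figure D5:**
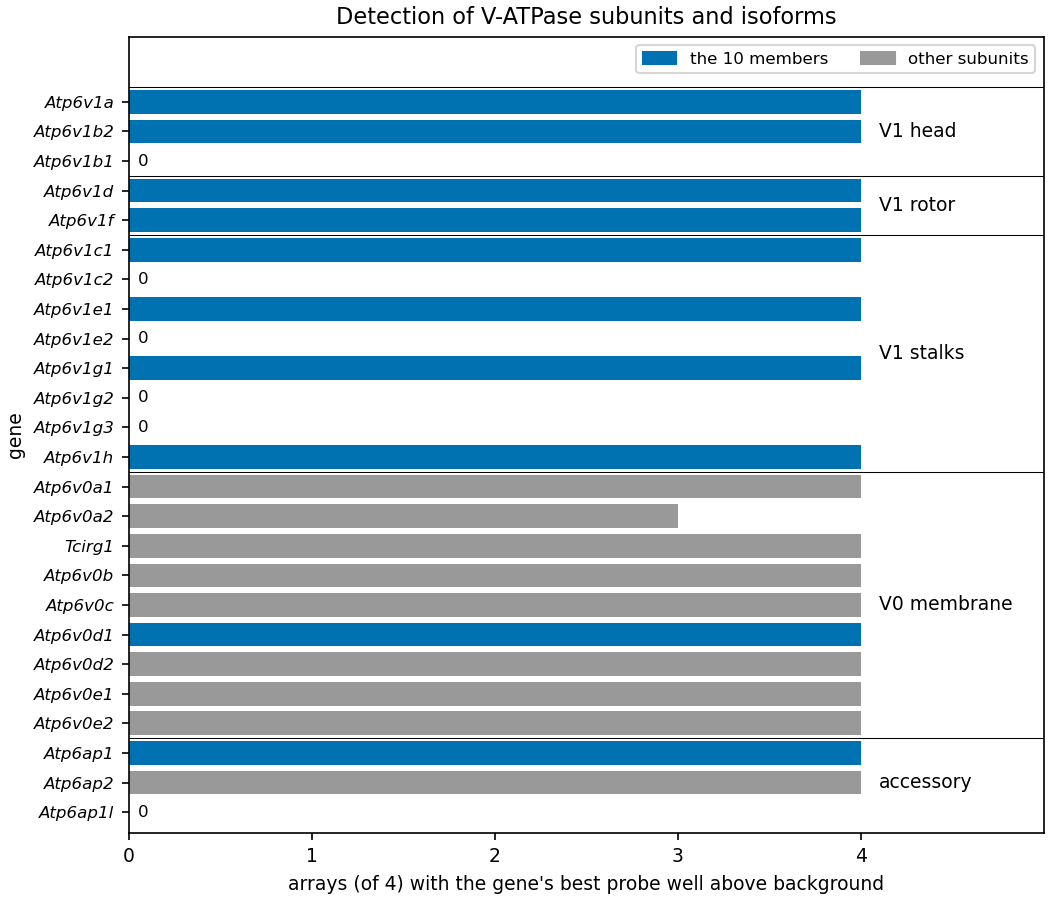
Number of arrays, of 4, on which the best probe of each V-ATPase gene was well above background (bars), arranged by place in the pump; blue bars are the 10 member genes and grey bars the other subunits. All member bars reach 4, while Atp6v1b1, Atp6v1c2, Atp6v1e2, Atp6v1g2, Atp6v1g3 and Atp6ap1l are at 0.

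Genes that build, regulate and surround the pump were examined in the same way. Of 7 measured assembly and regulator genes 3 (42.9%) were above background on all 4 arrays, near the 38.7% of all genes. Rogdi, a component of the complex that rejoins V1 with V0, stood at 4.56 ± 0.12 and Tmem199, an assembly factor of the membrane sector, at 1.30 ± 0.35 (SD, n = 4 each); the last of the 3 was Oxr1, named to complete the count. Ccdc115, the partner of Tmem199, passed on 2 arrays, and Dmxl2 and Wdr7, partners of Rogdi, on none. No probe could be matched to Vma21. Of 11 measured channels and exchangers that accompany acidification 6 passed, with the chloride-proton exchanger gene Clcn7 at 1.80 ± 0.57, its partner Ostm1 at 1.99 ± 0.09 and the calcium channel gene Mcoln1 at 4.23 ± 0.15 (SD, n = 4 each). The lysosomal proton leak channel Tmem175 stood at 0.61 ± 0.54 (SD, n = 4), and Cftr passed on no array.

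Of 13 measured genes of the mTORC1 docking platform, which senses amino acids together with the pump, 10 were above background on all 4 arrays. The share over all genes, to be set beside each count here, was 38.7%. Lamtor1, the membrane anchor of the Ragulator complex, stood at 3.81 ± 0.45, Lamtor5 at 5.14 ± 0.24 and Rragc at 7.02 ± 0.17 (SD, n = 4 each), while Slc38a9, the arginine sensor, passed on none and Mtor on 1. Of 7 genes of the TFEB family and its upstream regulators 6 passed. These basic helix-loop-helix factors bind E-boxes with the core CACGTG in promoters of lysosomal genes, V-ATPase subunits among them. Tfeb stood at 2.01 ± 0.31, Tfe3 at 4.25 ± 0.16, Mitf at 4.76 ± 0.29 and Tfec at 2.25 ± 0.38 (SD, n = 4 each), and Flcn, which controls their entry into the nucleus, at 6.08 ± 0.18 (SD, n = 4). Only 3 of the 7 passed with each of their probes. All 14 measured subunits of the mitochondrial ATP synthase, a related rotary enzyme that makes ATP, were above background. Among genes that work in the acid lumen 18 of 20 lysosomal hydrolases and membrane proteins and 10 of 13 cathepsins passed. The median SD of genes above background was 0.31 for the 10 V-ATPase subunits and 0.30 for the other subunits of the pump. It was 0.30 for the TFEB family list and 0.29 each for the channels, the assembly genes and these lysosomal genes. For cathepsins it was 0.21, and 0.17 each for the mitochondrial subunits and the mTORC1 platform.

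Values of the whole arrays bear on these results as follows. The 75th percentiles ranged from 4.55 to 5.38 on the log2 scale, with replicate 1 brightest and replicate 3 dimmest, and Pearson's r between pairs of arrays across genes above background was 0.975 to 0.986, a value across genes, which share these arrays. No arrays were identical. Among macrophage markers Cd68 stood at 7.13 ± 0.08 and Lyz2 at 9.43 ± 0.21 (SD, n = 4 each), 9 of 14 measured were above background, and Marco and Adgre1, both known from tissue macrophages, passed on no array. None of 9 lung epithelial markers passed, with Sftpc and Epcam on no array. Of 6 measured granulocyte and lymphocyte markers Lck and Pax5 passed (33.3%), and S100a9 and Cd3e passed on no array. Over all genes 38.7% passed on all 4 arrays, the share to set beside these marker counts. The dimmer Atp6ap2 probe, a subunit outside the 10, stood at a deviation of -0.84 log2 units from the other arrays on replicate 2, where the 71 spots around it had a median deviation of -0.70; their part in its value was not tested. The brighter Atp6ap2 probe had -0.13 there.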

How the data were processed

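The arrays had been read by the authors in Feature Extraction 11.0.1.1 (Agilent), per the file headers. The deposited processed signal is a linear intensity, already background-subtracted and not scaled between arrays, with a floor above 0. The deposited flags mark spots well above background, saturated spots and outliers. Control spots (4259 per array) and outlier spots (491 to 828 per array) were left out, and log2 values of repeated spots were averaged, giving 45598 probes. Probe accessions without versions were matched to RefSeq transcripts of GRCr8: 21109 probes had 1 symbol, 24489 none and 0 several, and probes without one are unnamed here. The array design names the build rn4, so probes are given no coordinates; those of the promoters are RefSeq's, in GRCr8.

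Each array's 75th percentile over probes was taken off its log2 signals. A probe passed where 0.5 or more of its spots were flagged well above background, and a gene when any of its probes passed on all 4 arrays; the probe with the highest mean gives its level. Precision is limited by the number of arrays. With 1 group no between-group test was made. All members were named; of the other lists, all pump subunits and genes picked for their known role. The members and lists were chosen with earlier results of these data known. Alternatives were a looser flag, passing on 3 of 4 arrays or with every probe, keeping outlier spots, detected-probe percentile, quantile normalization, no scaling, normexp with an offset of 50 on the raw median signals (limma 3.58.1, R 4.3.3), averaging a gene's probes, keeping dim genes in the background, and dropping each replicate in turn. The count of genes lowest on replicate 1 and highest on replicate 4, the partner ratios, the spot spread and the promoter search were added after seeing the data. Calculations ran in Python 3.11.15 with numpy 2.4.6 and pandas 2.3.3 and were tested on simulated data.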

Additional observations from a re-analysis of the deposited data

Results flagged for a closer look

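The 96 listed genes above background with a value on every array, and the second probes of 5 V-ATPase genes, were tested for 1 array standing apart from the other 3. Of these 101 values 4 exceeded Dixon's 95% critical value for the gap over the range, and chance gives about 1 in 20; over all 6417 genes with complete values 4.91% did. None of the 10 V-ATPase subunits did, with a highest ratio of 0.822. Atp6v0b, a proteolipid of the pump, was high on replicate 4, at 7.66 against 6.95 to 6.999 (ratio 0.926). Before scaling its signal was highest on replicate 1, at 5136 units against 5017 on replicate 4. Rogdi was high on replicate 3, at 4.75 against 4.49 to 4.51 (ratio 0.905). The lysosomal hydrolase genes Gusb (ratio 0.942) and Lipa (ratio 0.873) were low on replicate 1, Gusb at 0.05 against 0.93 to 0.99 and Lipa at 4.78 against 5.49 to 5.60.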

How the results depend on the processing

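The 10 V-ATPase subunits stayed above background on all arrays used in each of the 8 alternatives for that count, while the share of all genes ran from 33.2% (all probes must pass) to 50.9% (looser flag). The other subunits numbered 8 to 10 of 15, with 10 under the looser flag, which added Atp6v0a2 and Atp6ap1l. The median subunit SD lay between 0.22 (without replicate 1) and 0.36 (without replicate 2), against 0.20 and 0.24 for all genes; it lay below the all-gene median without scaling (0.33 against 0.38) and with dim genes kept (0.31 against 0.43). The average subunit deviation moved beyond the spread between subunits without scaling, to 0.32 on replicate 1, 0.17 on replicate 2 and -0.38 on replicate 3, and with normexp to -0.22 on replicate 3; the all-gene medians moved the same way, to 0.42, 0.12 and -0.33 without scaling and to -0.11 with normexp. Without scaling and with normexp the sign also turned on replicate 1 (0.32 and 0.15) and on replicate 4 (-0.10 and -0.01). The count of subunits lowest on replicate 1 and highest on replicate 4 was 3 with quantile normalization, 1 without scaling and 1 with normexp, and 6 without replicate 2 or 3, where the share of all genes was 29.8% and 33.7%; it has no value without replicate 1 or 4. Mean levels moved by more than their SD for all 10 subunits with normexp, by -1.69 to -0.97 (the cause was not tested), and for Atp6v1a and Atp6v1h with the mean of all probes, which brings in their dimmer probes. The assembly list numbered 5 with the looser flag, and the osteoclast markers 2 with that flag, with 3 of 4 arrays or without replicate 3, and 0 when all probes had to pass; the acid-secreting and lung epithelial lists each numbered 1 with the looser flag. No paired analysis was possible because all 4 arrays belong to 1 group, and slide as a block was not run. The number of arrays limits how small a difference between replicates can be told apart.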
